A study of Arabidopsis thaliana with 36 samples.

Results

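The 100 genes described here were switched on within 1 h of flg22 in wild-type (WT) Arabidopsis thaliana seedlings and had lost most of that rise by 2 h. They were chosen by their level in CPM (a gene's share of its library's counts scaled to a common total) in WT alone. A gene had to average at least 10 CPM at 1 h, with a log2 ratio of 1 h over 0 h of at least 2 after 1 CPM was added to each mean. Of the 946 genes that met both limits, the 100 with the lowest log2 ratio of 2 h over 1 h were taken, out of 32678 genes in the table. All 9 WT libraries entered the choice, so WT values, and differences of a mutant from WT, are given below as a description without a test. The genes were not chosen on any mutant library, and the tests are within mutants and between mutants.

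Seedlings of 4 Col-0 genotypes were compared: the double mutant wrky18 wrky40, the single mutants wrky40 and wrky18, and WT. Each was sampled untreated (0 h), or 1 h or 2 h after its growth medium was exchanged for medium holding 1 µM flg22, which gives 12 groups of 3 libraries. Whole seedlings grown for 12 days in liquid medium were used, the labels name no allele for any mutant, and each replicate number marks a set of 12 samples, 1 per group. Untreated seedlings kept their medium, so in any comparison with 0 h the peptide, the exchange of medium and the hour of sampling cannot be told apart. In whole seedlings, fewer cells of a type and less RNA per cell cannot be told apart either.

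The flagellin peptide flg22 is perceived by plants through the receptor kinase FLS2. Perception opens calcium channels and activates MAP kinases within minutes, and a first wave of transcripts follows, many of them for signalling proteins, transcription factors and ubiquitin ligases. Transcripts of such early genes are often short-lived, and their fall after the peak limits how long the proteins are made. WRKY18 and WRKY40 are closely related WRKY transcription factors that bind W boxes (TTGAC with a C or T after it) and mostly act as repressors of defence genes.

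Library totals ran from 17287229 to 38709715 counts. Root markers summed to between 1390 and 2850 CPM and green shoot markers to between 14951 and 37883 CPM in every library, as whole seedlings would have. Mitochondrial transcripts made up 0.0444% to 0.155% of counts in replicates 1 and 2 and 0.0131% to 0.0193% in replicate 3, apart from WT 1 h replicate 3 at 0.134%. That library therefore stands apart from its own set, and the choice of genes without it shared 98 of the 100. WRKY18 had 45.9 to 50.01 CPM at 1 h in the double mutant and 24.4 to 29.9 CPM in wrky18, against 294 to 299 CPM in wrky40 and 112 to 123 CPM in WT. WRKY40 at 2 h had 32.4 to 41.0 CPM in the double mutant and 29.7 to 38.1 CPM in wrky40, against 322 to 360 CPM in wrky18 and 318 to 343 CPM in WT. Neither WRKY18, WRKY40 nor their relative WRKY60 is among the 100 genes.

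In WT the 100 genes spanned 10.9 to 788 CPM at 1 h with a median of 76.2 CPM. Their medians were 1.55 CPM at 0 h and 18.43 CPM at 2 h. The log2 ratio of 2 h over 1 h ran from -4.15 for CNGC19 to -1.66 for AT2G35658, with a median of -2.11. Just outside that limit were WRKY41 at -1.65, PUB29 at -1.63 and CPK32 at -1.63, so the list ends within a continuous range and not at a gap. At the limit on level, ERF13 (10.9 CPM), BAP2 (10.96 CPM) and AT2G24130 (11.4 CPM) stood just inside, and 9 genes missed that limit alone. At the limit on the rise, WRR4 (log2 2.18) and PHI-1 (log2 2.25) stood just inside, and 29 genes missed it alone, with AT3G59310 (1.91) and AGO3 (1.90) nearest.

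By their annotated products, 16 of the genes encode transcription factors or proteins that bind them, 14 transporters and membrane proteins, 13 receptors and signalling proteins, 12 proteins of ubiquitination and proteolysis, 10 enzymes of metabolism and the cell wall, and 9 calcium channels, pumps and sensors. The other 26 have another or no known role, 9 of them annotated only as uncharacterized proteins. The 2 steepest falls in WT belonged to CNGC19, a cyclic nucleotide-gated calcium channel, and to AT4G04480, annotated as an F-box protein. Among the strongest peaks were LOX4, a lipoxygenase of jasmonate synthesis, the CCCH zinc finger genes CZF1 and SZF1, PP2-B13, an F-box protein of the phloem protein group, and the calcium pump ACA1. MPK3, a MAP kinase activated by flg22, and CPK28, a calcium-dependent kinase that limits the level of the immune kinase BIK1, were among the genes too.

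The genes were simply built, with somewhat shorter transcripts. Of the 100, 44 had a single exon, 44% beside 29.6% of the 842 other induced genes and 16.2% of the 20706 tested genes with an annotated transcript. Their median transcript was 1454 bases, against 1772 bases in other induced genes and 1680 bases in all genes tested. The median coding length differed less from that of all genes, at 1110 bases against 1251 and 1161 bases in the same order. There were 5 pairs next to each other in the order of protein-coding genes. They were PP2-B13 with PP2-B14, AT1G74440 with AT1G74450, CNGC19 with CNBT1, AT4G39570 with AT4G39580, and AT5G52750 with AT5G52760. PUP7 and AT4G18205 were not counted as such a pair but lie close together on the plus strand of chromosome 4. PUP7 ends at base 10073557 and AT4G18205 starts at base 10073711. Members of such pairs, and PUP7 with AT4G18205, can be similar in sequence and may share reads. A further limit is that 18 of the genes overlap another gene with counts, 17 of them on the other strand, and the strand setting of the counting is not given in the sources used here. The overlap was 500 bases or longer for 8 genes, among them AT4G04480, SARD1, AT5G51190 and EXO70H7.

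The 250 bases before each gene's start were searched on both strands of the RefSeq TAIR10.1 assembly for motifs known from stress promoters. The full W box (TTGACC or TTGACT) was present in 53% of the 100 genes, 56.5% of 841 other induced genes and 28.9% of 20702 genes tested. Its core TTGAC, which the full box contains, was present in 66%, 68.7% and 45.7% of them. The rapid stress response element CGCGTT was present in 14% of the 100 genes, against 7.37% of other induced genes and 2.85% of all. The CGCG box core, the calmodulin-binding activators' site searched as ACGCGT or ACGCGG or ACGCGC or CCGCGT or GCGCGT and partly overlapping CGCGTT, was present in 19%, 14.4% and 5.78%. W boxes were thus about as common as in other genes that rose at 1 h, while the share with CGCGTT was larger, from 14 genes. A heat shock element core (GAANNTTC) was present in 20%, 14% and 9.41%, the G box (CACGTG) in 9%, 5.83% and 7.24%, and the GCC box (GCCGCC) in 5%, 3.09% and 1.94%. The drought-responsive core (ACCGAC or GCCGAC) was present in 5%, 8.8% and 7.77%, and the evening element (AAAATATC) in 5%, 6.78% and 6.05%.

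**Figure D1:**
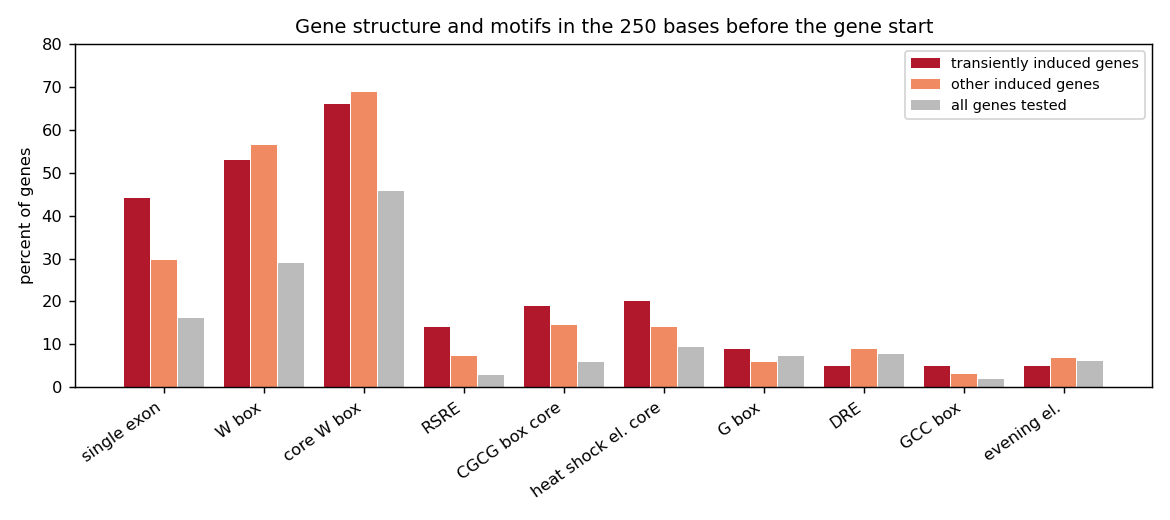
Percent of genes (vertical axis) with a single exon, or with each motif at least once within 250 bases before the gene start, for the 100 transiently induced genes (red), the other genes induced at 1 h (orange) and all genes tested (grey). Single-exon genes made up 44% of the 100, against 29.6% and 16.2%, and CGCGTT (RSRE) was present in 14%, against 7.37% and 2.85%, while the W box shares of the red and orange sets were 53% and 56.5%.

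The following 5 windows are printed because they belong to genes on which the results below turn: the steepest fall in WT (CNGC19), genes with a large excess at 2 h in the double mutant over wrky18 (AT3G12910, AT1G78410 and TDR1), and DIC2, which was lower there. Each is read 5′ to 3′ on the gene's strand and ends at the base before the gene start, with capitals for TTGAC or its complement GTCAA and likewise for CGCGTT or its complement, and for the CGCG box cores.
CNGC19, chr3:6044752-6045001, plus strand: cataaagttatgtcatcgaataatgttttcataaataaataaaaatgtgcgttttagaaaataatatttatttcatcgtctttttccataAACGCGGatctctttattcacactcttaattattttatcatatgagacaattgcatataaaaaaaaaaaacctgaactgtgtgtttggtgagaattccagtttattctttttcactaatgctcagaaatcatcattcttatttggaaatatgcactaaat
AT3G12910, chr3:4109125-4109374, plus strand: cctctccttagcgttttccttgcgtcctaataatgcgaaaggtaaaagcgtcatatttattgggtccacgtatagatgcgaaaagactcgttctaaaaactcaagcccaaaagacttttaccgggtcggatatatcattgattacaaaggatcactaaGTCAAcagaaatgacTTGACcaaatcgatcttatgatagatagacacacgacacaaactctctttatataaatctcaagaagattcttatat
AT1G78410, chr1:29502256-29502505, plus strand: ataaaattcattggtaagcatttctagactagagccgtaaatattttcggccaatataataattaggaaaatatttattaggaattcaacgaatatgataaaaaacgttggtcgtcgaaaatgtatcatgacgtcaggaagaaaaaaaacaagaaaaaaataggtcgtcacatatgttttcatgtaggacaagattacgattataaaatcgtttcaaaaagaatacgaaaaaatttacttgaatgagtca
TDR1, chr3:8290165-8290414, minus strand: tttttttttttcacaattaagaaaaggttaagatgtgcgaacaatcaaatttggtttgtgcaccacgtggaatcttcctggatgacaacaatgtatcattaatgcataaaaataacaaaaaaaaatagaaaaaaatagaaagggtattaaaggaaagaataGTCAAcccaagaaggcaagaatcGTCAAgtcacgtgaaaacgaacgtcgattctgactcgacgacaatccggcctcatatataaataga
DIC2, chr4:12686209-12686458, plus strand: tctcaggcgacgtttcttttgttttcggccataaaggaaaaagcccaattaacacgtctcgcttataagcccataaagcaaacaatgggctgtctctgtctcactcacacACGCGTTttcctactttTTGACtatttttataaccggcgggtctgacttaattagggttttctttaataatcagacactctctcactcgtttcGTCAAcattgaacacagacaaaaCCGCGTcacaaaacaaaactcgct
AT3G12910 and TDR1 each held TTGAC at 2 places and no CGCG core. DIC2 held both kinds, and CNGC19 held CGCGTT without TTGAC. In AT1G78410 none of these letters occurred within the window, which says nothing about sites outside it.

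The shut-off took place in all 3 mutants. Between 1 h and 2 h the level fell for 100 of 100 genes in the double mutant, 100 of 100 in wrky40 and 100 of 100 in wrky18 (edgeR quasi-likelihood test with Benjamini-Hochberg adjustment over 21356 genes, called at an adjusted p below 0.05). Over all genes tested, 23% were called lower at 2 h than at 1 h in the double mutant, 24.9% in wrky40 and 25.8% in wrky18. Among the 846 other induced genes, 49.2%, 48.3% and 48.6% were called lower in the same order of genotypes. The largest adjusted p among the 100 genes was 0.000435 in the double mutant, 0.000263 in wrky40 and 2.18e-06 in wrky18. The rise at 1 h was equally general, with 100 of 100 genes called higher than at 0 h in each mutant, beside 30.1% of all genes in the double mutant, 29.9% in wrky40 and 28.3% in wrky18.

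The depth of the shut-off differed more than its presence. The median log2 change, 2 h against 1 h, was -1.79 in the double mutant (range -5.01 to -0.63), -1.84 in wrky40 (-4.53 to -0.93), -2.20 in wrky18 (-4.98 to -1.25) and -2.21 in WT. Over the members, the level at 2 h was a median 28.4% of that at 1 h in the double mutant, 27.6% in wrky40, 21.3% in wrky18 and 21.6% in WT. Genes left with under 25% of their 1 h level numbered 39 in the double mutant, 42 in wrky40, 62 in wrky18 and 67 in WT. The double mutant and wrky40 thus kept more of the peak level at 2 h, and wrky18 lay near WT. Because the genes were chosen for their steepest falls in WT, any genotype that departs from WT tends to show a smaller fall by that choice alone, so the direction against WT, or against wrky18, which lay near WT, has no weight as evidence. The median over all genes tested was -0.01, 0.01, 0.01 and 0.02 in the same order.

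The same was seen in each set of samples when the share of the 1 h rise over 0 h that was left at 2 h was taken gene by gene. Its median was 21.2%, 23.8% and 21.9% in sets 1, 2 and 3 of the double mutant, and 19.96%, 22.7% and 22.5% in wrky40. It was 16.2%, 18.3% and 18.44% in wrky18 and 17.3%, 18.36% and 17.1% in WT. The double mutant and wrky40 did not overlap wrky18 or WT, and overlapped each other. The genes were chosen on these WT libraries and wrky18 lay near WT, so this lack of overlap is a description without weight as evidence. Both ends of the measure moved: the summed level of the 100 genes at 2 h was 4383 CPM in the double mutant, 4356 CPM in wrky40, 4179 CPM in wrky18 and 3981 CPM in WT, and at 1 h it was 14715, 15040, 17337 and 16683 CPM in that order. Libraries of the double mutant summed to 14227 to 15168 CPM at 1 h, all below the 16567 to 18252 CPM of wrky18.

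**Figure D2:**
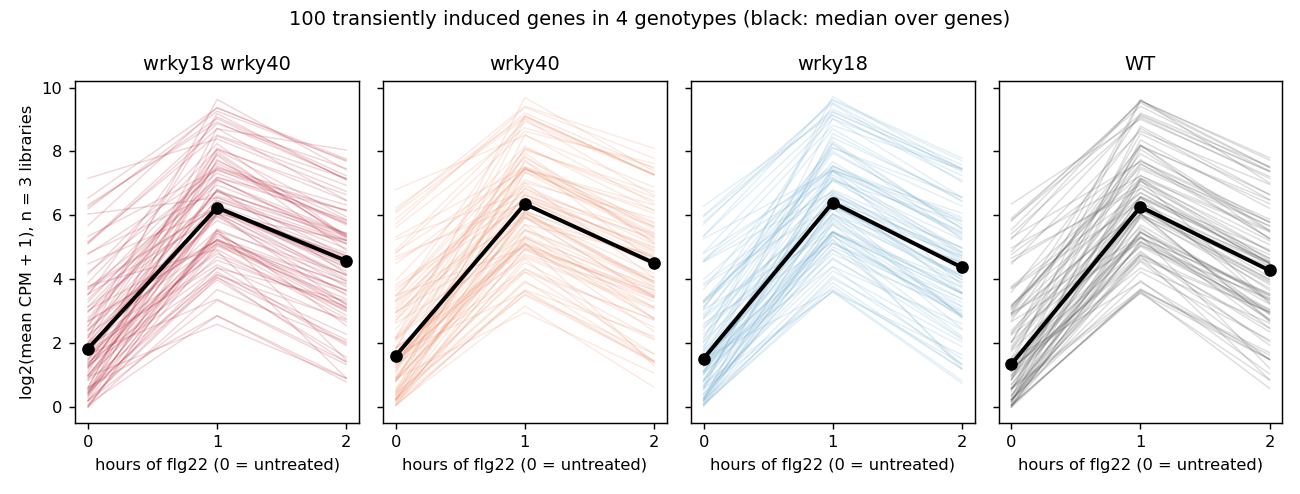
Mean level of each of the 100 genes (log2 of mean CPM + 1, n = 3 libraries) at 0 h, 1 h and 2 h in the double mutant, wrky40, wrky18 and WT, with the median over genes in black. Every panel peaks at 1 h, and the median change between 1 h and 2 h in the model was -1.79, -1.84, -2.20 and -2.21 in the order of the panels.

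For most genes the fall did not reach the untreated level. At 2 h, 93 genes were still higher than at 0 h in the double mutant, 93 in wrky40 and 96 in wrky18, beside 36.3%, 37.2% and 36.8% of all genes called higher. In the double mutant 2 genes were lower than at 0 h, CNGC19 by the log2 change of -0.96 ± 0.31 (SE, adjusted p = 0.00622 by edgeR) and AT5G51190, an ERF-type factor, by -0.78 ± 0.27 (adjusted p = 0.0119), beside 36.2% of all genes called lower. ERF13 and AT1G14480, an ankyrin repeat gene, were not called in any mutant, and WRR4, TCH4 and PHI-1 were not called in the double mutant or wrky40. TCH4, a touch-induced wall enzyme, and PHI-1 had high untreated levels in the double mutant, 121 to 162 CPM and 50.4 to 79.5 CPM. A list of 10 genes known to respond to touch and handling had 8 members tested, TCH4 among them. Of these, 6 fell at 2 h in the double mutant, 6 in wrky40 and 7 in wrky18, with none higher. Over all genes tested, 23%, 24.9% and 25.8% were called lower. Without TCH4, the list summed to 341 to 373 CPM at 0 h in the double mutant, 2381 to 2609 CPM at 1 h and 1687 to 1875 CPM at 2 h. In WT it summed to 236 to 309, 2425 to 2483 and 1729 to 1834 CPM. These genes thus rose at 1 h too and stayed well above 0 h at 2 h. The part of the exchange of medium in the peak was not tested.

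CNGC19 had the steepest fall of the 100 genes in the double mutant and wrky40 and the second steepest in wrky18. In the double mutant it had 1.47, 3.41 and 1.42 CPM at 0 h, 27.8, 29.8 and 28.8 CPM at 1 h, and 0.992, 1.03 and 0.640 CPM at 2 h. In wrky40 it had 31.9, 36.7 and 35.2 CPM at 1 h and 1.58, 1.97 and 0.865 CPM at 2 h, and in wrky18 34.8, 39.5 and 37.3 CPM at 1 h and 0.972, 1.92 and 1.49 CPM at 2 h. Its WT libraries had 39.2, 41.3 and 40.8 CPM at 1 h and 1.66, 0.910 and 1.41 CPM at 2 h. The channel's transcript was thus back near or under the untreated level by 2 h in every genotype. The log2 change from 1 h was -5.01 ± 0.24 in the double mutant, -4.53 ± 0.22 in wrky40 and -4.64 ± 0.22 in wrky18, each with an adjusted p of at most 9.65e-17 by edgeR. Its neighbour CNBT1, which encodes a related cyclic nucleotide-binding transporter, was among the genes with the least fall, at -1.15 ± 0.08 in the double mutant, -1.26 in wrky40 and -1.31 ± 0.08 in wrky18.

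AT4G04480 peaked at 45.3, 43.7 and 46.2 CPM in the double mutant, 27.6, 21.6 and 22.8 CPM in wrky40, 38.4, 41.0 and 45.7 CPM in wrky18 and 19.5, 29.7 and 27.9 CPM in WT. The double mutant lay above all wrky40 libraries and overlapped wrky18. By 2 h it had 1.84, 1.86 and 1.65 CPM in the double mutant, 1.62, 1.68 and 1.73 CPM in wrky40 and 0.684, 1.61 and 1.60 CPM in wrky18. At 1 h it was higher in the double mutant than in wrky40 by 0.95 ± 0.14 on the log2 scale (adjusted p = 0.00115, edgeR), the 1 gene of the 100 called higher there beside 0.0796% of all genes. It was lower in wrky40 than in wrky18 at 1 h, by -0.79 ± 0.14 (adjusted p = 0.00309, edgeR). Both calls were kept under every alternative tried. The gene overlaps a neighbour by 837 bases, so its counts may hold reads of that gene.

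At the other end were genes whose shut-off was shallow. AT2G26190, a calmodulin-binding protein, had 417, 404 and 431 CPM at 1 h and 244, 275 and 270 CPM at 2 h in the double mutant. It had 420, 384 and 381 CPM at 1 h and 215, 187 and 185 CPM at 2 h in wrky40, and 438, 452 and 456 CPM at 1 h and 157, 192 and 172 CPM at 2 h in wrky18. The 2 h levels of the double mutant lay above all those of both single mutants, while its 1 h levels lay below all those of wrky18. The log2 fall to 2 h was -0.63 ± 0.14 in the double mutant, -0.99 ± 0.14 in wrky40 and -1.34 ± 0.14 in wrky18. AT2G19130, an S-locus lectin receptor kinase, fell by the log2 change of -1.001 ± 0.098, -1.10 ± 0.10 and -1.25 ± 0.10 in the same order, and CKX4, which degrades cytokinin, by -1.08 ± 0.20 in the double mutant.

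The double mutant and wrky18 differ in WRKY40 and were the pair with the most differences. At 1 h, 18 of the 100 genes were lower in the double mutant than in wrky18 and 4 were higher, beside 1.49% and 4.39% of all genes tested. Among the 846 other induced genes, 3.66% were lower and 20.9% higher, the reverse balance. At 2 h, 21 of the 100 genes were higher in the double mutant and 4 lower, beside 3.11% and 3.37% of all genes, and 16.9% and 4.14% of the other induced genes. So the balance of the 100 genes was towards lower at the peak and towards higher 1 h later, and only at the peak did it run opposite to that of the other induced genes. These counts are a description: the 100 genes were chosen on a WT pattern that wrky18 nearly shared, which by itself favours lower peaks and smaller falls in the double mutant, and the difference between the lists was not tested.

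The counts at 1 h rested on single libraries. Against 22 genes called with all libraries, the count was 13 without wrky18 replicate 1, 8 without wrky18 replicate 2, 14 without double mutant replicate 1 and 13 without double mutant replicate 3. At 2 h the count was 25, and 16 without wrky18 replicate 3. Heat shock genes summed to 97.7 to 111 CPM in the double mutant at 2 h and 200 to 298 CPM in wrky18. The summed levels of the root and guard cell markers were lower too, with the root list (8 of 9 genes tested) at 1431 to 1533 CPM in the double mutant and 1621 to 1714 CPM in wrky18, and the 4 guard cell markers at 16.2 to 18.42 CPM and 24.4 to 27.7 CPM. Single markers mostly did not pass the test, with 1 of 8 root genes lower and a list median of 0.07 (log2), and 1 of 4 guard cell genes lower and a median of -0.52. The part of these differences in the results was not tested.

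**Figure D3:**
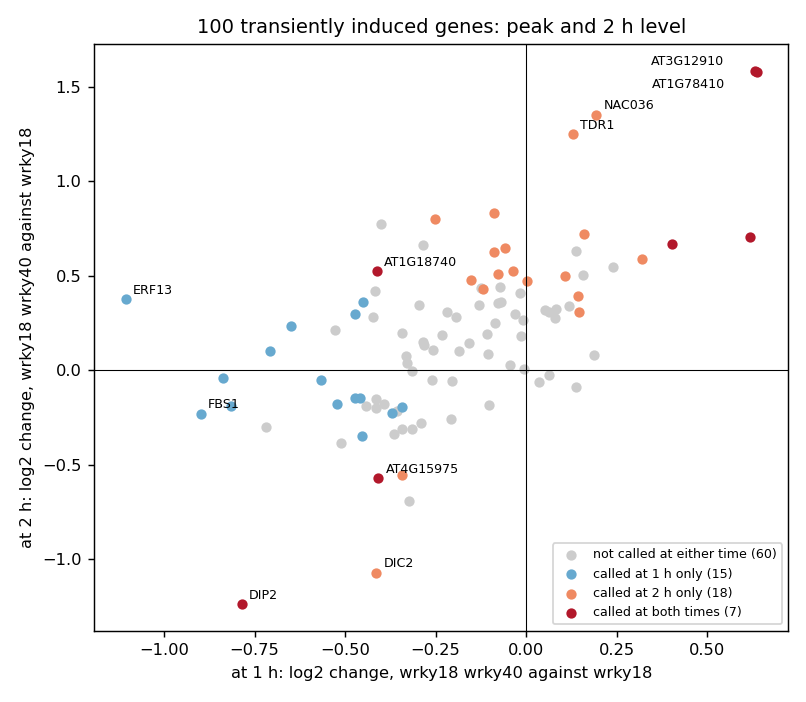
Log2 change between the double mutant and wrky18 at 1 h (horizontal) and at 2 h (vertical) for the 100 genes, coloured by whether each was called at 1 h, at 2 h or at both. AT3G12910 and AT1G78410 lie at the top right, higher at both times, DIP2 at the bottom left, and ERF13 and FBS1 at the far left, lower at 1 h.

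The transcription factor group held the genes with the largest excess at 2 h. Of its 16 genes, 6 were higher in the double mutant than in wrky18 at 2 h and none was lower. Over the 100 genes 21 were higher and 4 lower, beside 3.11% and 3.37% of all genes tested. AT3G12910, a NAC domain gene, had 37.1, 39.6 and 36.7 CPM at 2 h in the double mutant, 24.4, 22.2 and 19.5 CPM in wrky40, 10.3, 16.4 and 12.4 CPM in wrky18 and 8.07, 9.92 and 8.08 CPM in WT. The 3 mutants did not overlap, with the double mutant highest and wrky18 lowest. At 1 h it had 245, 266 and 249 CPM, 219, 214 and 202 CPM, 145, 185 and 176 CPM and 124, 146 and 139 CPM in the same order, again without overlap between mutants. The double mutant exceeded wrky18 by 0.63 ± 0.15 at 1 h (log2, adjusted p = 0.00733) and by 1.59 ± 0.16 at 2 h (adjusted p = 6.22e-08, edgeR). At 2 h it exceeded wrky40 by 0.83 ± 0.16 (adjusted p = 0.00219), and wrky40 exceeded wrky18 by 0.76 ± 0.16 (adjusted p = 0.0133, edgeR). These comparisons share libraries and are not independent of each other.

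AT1G78410 encodes a VQ motif protein, a family known as partners of WRKY factors. At 2 h it had 41.8, 32.8 and 35.05 CPM in the double mutant, 27.01, 29.9 and 22.8 CPM in wrky40, 12.4, 12.6 and 12.8 CPM in wrky18 and 10.2, 8.13 and 9.34 CPM in WT. No library of the double mutant overlapped wrky40, and none of wrky40 overlapped wrky18. The peak at 1 h was 68.0, 66.9 and 60.4 CPM in the double mutant and 37.3, 48.1 and 44.3 CPM in wrky18. The double mutant was higher by 0.64 ± 0.13 at 1 h (adjusted p = 0.00319) and by 1.58 ± 0.14 at 2 h (adjusted p = 9.73e-09), and wrky40 was higher than wrky18 at 2 h by 1.07 ± 0.14 (adjusted p = 2.96e-05, edgeR). Its fall between 1 h and 2 h was -0.80 ± 0.13 in the double mutant and -0.93 ± 0.14 in wrky40, and -1.74 in wrky18. Other VQ genes, AT1G17147 and AT1G21326, were higher in the double mutant at 2 h by 0.72 ± 0.14 and 0.83 ± 0.19 (adjusted p = 0.00119 and 0.00607, edgeR).

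NAC036 differed in its tail and not in its peak. At 1 h it had 72.8, 67.04 and 78.5 CPM in the double mutant, 73.8, 62.9 and 53.5 CPM in wrky40, 62.7, 66.8 and 67.4 CPM in wrky18 and 54.6, 71.8 and 68.9 CPM in WT, and the groups overlapped. Libraries at 2 h had 16.4, 13.1 and 15.7 CPM in the double mutant and 11.5, 15.7 and 16.1 CPM in wrky40, all above the 5.90, 5.80 and 6.56 CPM of wrky18 and the 4.51, 6.67 and 5.81 CPM of WT. The excess over wrky18 at 2 h was 1.35 ± 0.14 in the double mutant (adjusted p = 1.13e-07) and 1.24 ± 0.14 in wrky40 (adjusted p = 1.46e-06, edgeR). At 1 h the double mutant's difference from wrky18 was 0.19 and not called. It was higher in the untreated double mutant too, by 0.91 ± 0.19 over wrky18 and 0.87 ± 0.19 over wrky40 (adjusted p = 0.0135 and 0.0182, edgeR).

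TDR1, an AP2/ERF-type factor, behaved in the same way. At 2 h it had 32.4, 36.8 and 33.8 CPM in the double mutant, 24.4, 26.8 and 21.0 CPM in wrky40, 12.3, 18.5 and 13.9 CPM in wrky18 and 10.6, 11.9 and 13.99 CPM in WT. The mutants did not overlap at 2 h, whereas at 1 h the double mutant (87.5, 97.4 and 74.5 CPM) and wrky18 (78.5, 95.3 and 71.3 CPM) did. The excess of the double mutant at 2 h was 1.25 ± 0.14 over wrky18 (adjusted p = 4.93e-07) and 0.56 ± 0.14 over wrky40 (adjusted p = 0.0211, edgeR). In contrast, ERF13 was lower at the peak, with 5.09, 5.24 and 4.78 CPM in the double mutant against 12.3, 12.5 and 8.72 CPM in wrky18 and 9.22, 13.4 and 9.98 CPM in WT. That is a log2 change of -1.11 ± 0.22 between the double mutant and wrky18 (adjusted p = 0.00226, edgeR), and at 2 h its groups overlapped near 1 CPM. SARD1, an activator of salicylic acid synthesis, WRKY46, CZF1 and SZF1 were not called at 1 h or 2 h between these mutants.

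**Figure D4:**
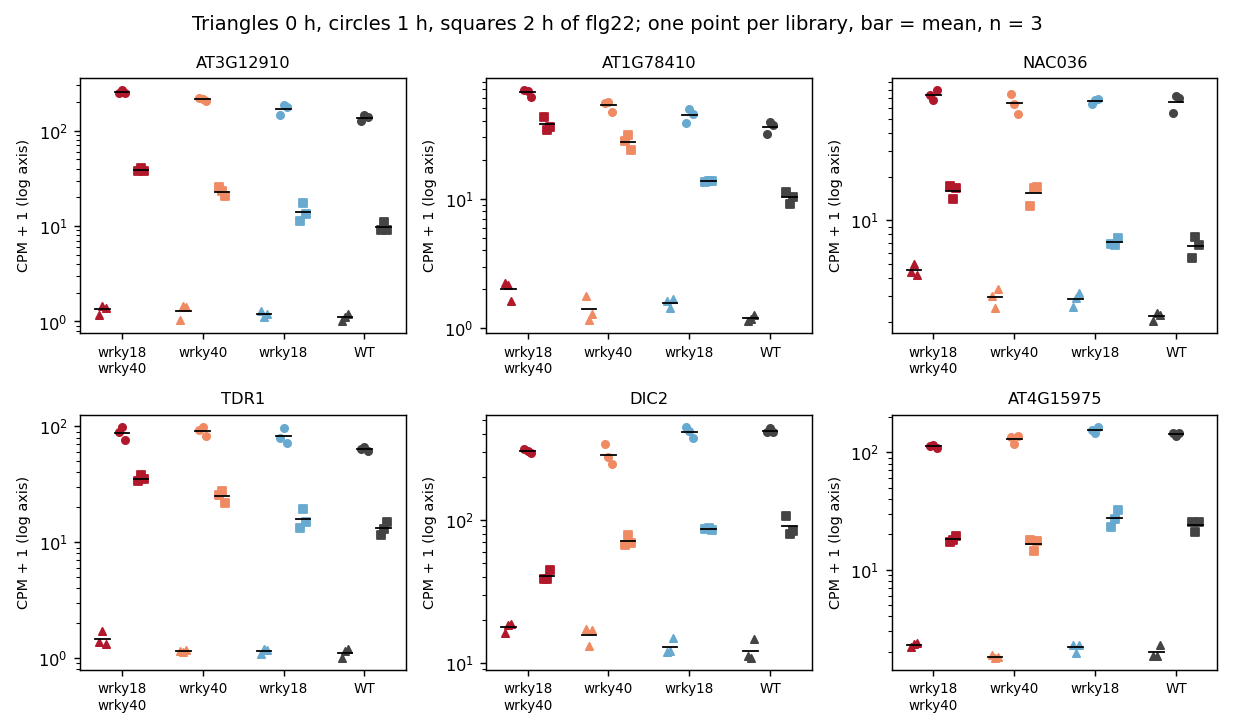
CPM + 1 on a log axis for 6 genes in the double mutant, wrky40, wrky18 and WT, with 1 point per library at 0 h (triangles), 1 h (circles) and 2 h (squares) and a bar at the mean of 3. At 2 h AT3G12910, AT1G78410 and TDR1 step down across the 3 mutants, NAC036 is high in the double mutant and wrky40, DIC2 is lowest in the double mutant, and AT4G15975 is lower in the double mutant and wrky40 than in wrky18.

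Genes of ubiquitination and proteolysis went both ways. PUB12, one of the ubiquitin ligases that act on FLS2, had 93.7, 94.4 and 102 CPM at 1 h in the double mutant against 69.2, 71.4 and 85.8 CPM in wrky18, and 40.7, 39.9 and 38.5 CPM at 2 h against 25.2, 25.4 and 26.6 CPM. It was higher by 0.40 ± 0.10 at 1 h (adjusted p = 0.00949) and by 0.67 ± 0.10 at 2 h (adjusted p = 3.95e-05, edgeR), without overlap at either time. AT4G22030, an F-box gene, had 8.43, 6.40 and 8.01 CPM at 2 h in the double mutant, 6.22, 9.97 and 6.89 CPM in wrky40 and 3.96, 5.19 and 4.39 CPM in wrky18. AT4G15975, a RING/U-box gene, was lower, with 16.2, 16.9 and 18.25 CPM at 2 h in the double mutant and 16.9, 13.5 and 16.6 CPM in wrky40, against 21.9, 26.1 and 31.0 CPM in wrky18. Its change against wrky18 at 2 h was -0.57 ± 0.11 in the double mutant (adjusted p = 0.000655) and -0.75 ± 0.11 in wrky40 (adjusted p = 6.43e-05, edgeR). Its peak at 1 h was called lower in the double mutant than in wrky18 too, with means of 112 and 154 CPM. FBS1, a stress-induced F-box gene, had 35.9, 29.2 and 36.7 CPM at 1 h in the double mutant and 63.3, 69.7 and 62.8 CPM in wrky18, a change of -0.90 ± 0.16 (adjusted p = 0.000597, edgeR), and was not called at 2 h. DIP2, annotated as a ubiquitin ligase, was lower at both times, by -0.78 ± 0.24 and -1.24 ± 0.34 (adjusted p = 0.0445 and 0.0245, edgeR), with levels of 6.15 to 6.48 CPM at 1 h in the double mutant and 9.04 to 13.7 CPM in wrky18.

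Among transporters and membrane proteins, DIC2, a dicarboxylate carrier of mitochondria, was lowest at 2 h in the double mutant. It had 313, 301 and 292 CPM at 1 h in the double mutant, 341, 273 and 244 CPM in wrky40, 450, 421 and 375 CPM in wrky18 and 413, 439 and 411 CPM in WT. Its 2 h libraries had 37.7, 37.5 and 43.2 CPM in the double mutant, 65.2, 77.2 and 67.8 CPM in wrky40, 85.5, 87.3 and 84.3 CPM in wrky18 and 106, 78.8 and 82.6 CPM in WT. At 2 h no library of the double mutant overlapped any other genotype. The change was -1.07 ± 0.13 against wrky18 (adjusted p = 1.62e-06) and -0.78 ± 0.13 against wrky40 (adjusted p = 0.000670, edgeR). The difference in its fall was not called against wrky18 (-0.66 ± 0.18, adjusted p = 0.0789, edgeR), and the call against wrky40 given further on was lost with most single libraries left out. The purine permease gene PUP7 was higher in the double mutant than in wrky18 at 2 h, by 0.63 ± 0.14 (adjusted p = 0.00369, edgeR), as were AT3G28580 and AT4G18205, by 0.59 ± 0.18 and 0.43 ± 0.12. EXO70H7, an exocyst subunit, was lower at 1 h by -0.57 ± 0.11 (adjusted p = 0.00156, edgeR) and overlaps another gene by 2221 bases.

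Of the 9 calcium genes, 3 were higher in the double mutant than in wrky18 at 2 h: AT3G29000, AT2G26190 and CNBT1. That stands beside 21 of the 100 genes and 3.11% of all genes tested. AT3G29000, an EF-hand calcium-binding protein, had 207, 223 and 194 CPM at 1 h in the double mutant, 182, 186 and 169 CPM in wrky40, 138, 156 and 127 CPM in wrky18 and 90.0, 95.7 and 99.3 CPM in WT. Later, at 2 h, it had 58.2, 58.8 and 56.4 CPM in the double mutant, 47.4, 38.4 and 36.7 CPM in wrky40 and 30.7, 38.3 and 40.7 CPM in wrky18. The double mutant lay above both single mutants at both times. It exceeded wrky18 by 0.62 ± 0.11 at 1 h (adjusted p = 0.00034) and by 0.71 ± 0.11 at 2 h (adjusted p = 5.96e-05, edgeR), so its fall, at -1.82 and -1.91 in the 2 mutants, gave no call of a difference. ACA1 and CPK28 were not called at any time between these mutants, with log2 differences of -0.01 and -0.11 at 1 h and 0.18 and 0.08 at 2 h.

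Of 13 receptor and signalling genes, 2 were called between these mutants at 2 h: AT2G19130 was higher in the double mutant than in wrky18 at 2 h, by 0.39 ± 0.10 (adjusted p = 0.0116), and AT1G66090, a TIR-NBS gene, was lower by -0.56 ± 0.17 (adjusted p = 0.0463, edgeR). Over the 100 genes 21 were higher at 2 h and 4 lower, beside 3.11% and 3.37% of all genes tested. AT1G66090 had 52.6, 61.9 and 69.1 CPM in the double mutant and 81.8, 101 and 96.2 CPM in wrky18. MPK3 fell by the log2 change of -1.75 in each of the 3 mutants. The TIR-NBS-LRR gene WRR4 and the receptor kinase gene AT2G24130 were lower at 1 h, by -0.45 ± 0.11 and -0.84 ± 0.18 (adjusted p = 0.00774 and 0.00437, edgeR). Of the 10 metabolic and wall genes, AT2G32030, SVL3 and PHI-1 were lower at 1 h, by -0.34 ± 0.10, -0.52 ± 0.13 and -0.82 ± 0.24, and CYP82C3, a cytochrome P450, was higher at 2 h by 0.52 ± 0.16 (adjusted p = 0.0459, edgeR). At 1 h 18 of the 100 genes were lower, beside 1.49% of all genes tested. LOX4, with 572, 537 and 633 CPM at 1 h in the double mutant and 698, 700 and 749 CPM in wrky18, did not overlap between them but was not called.

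Whether the fall itself differed was tested as the difference between 2 mutants in the log2 change, 2 h against 1 h. The fall was smaller in the double mutant than in wrky18 for 9 genes and larger for none, beside 0.253% and 0.693% of all genes called. The point estimate was smaller for 89 of 100 genes, with a median difference of 0.34, beside -0.01 for the 846 other induced genes and -0.02 for all genes. Since wrky18 lay near the WT pattern on which the genes were chosen, that choice favours this direction. The balance of 9 against none, the 89 and the median are therefore given as a description only. The 9 genes were NAC036 (1.16 ± 0.19, adjusted p = 0.00146), TDR1 (1.12 ± 0.20, adjusted p = 0.00261), AT4G22030 (1.05 ± 0.24), AT3G12910 (0.95 ± 0.22), AT1G78410 (0.94 ± 0.20), AT1G18740 (0.94 ± 0.16, adjusted p = 0.00167), AT1G74450 (0.88 ± 0.22), AT5G66650 (0.82 ± 0.20) and AT1G05575 (0.77 ± 0.16, edgeR). They came about in different ways: in NAC036, TDR1 and AT4G22030 the 2 h level was higher and the peak was not called, in AT3G12910 and AT1G78410 both levels were higher, and in AT1G74450, AT5G66650 and AT1G05575 the peak was lower. AT1G18740, one of the DUF793 genes, had 108, 94.5 and 114 CPM at 1 h in the double mutant against 146, 145 and 143 CPM in wrky18, and 47.7, 35.7 and 43.9 CPM at 2 h against 31.1, 28.3 and 32.0 CPM. It was lower at 1 h and higher at 2 h, by -0.41 ± 0.11 and 0.53 ± 0.11 (adjusted p = 0.0187 and 0.00284, edgeR), the 1 gene of the 100 called in opposite directions. With the replicate number as a block the count was 14, and it was 4 without wrky18 2 h replicate 1 and 5 without double mutant 1 h replicate 1, 2 h replicate 2 or 2 h replicate 3. NAC036, TDR1, AT1G18740 and AT1G78410 were called in all of these.

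**Figure D5:**
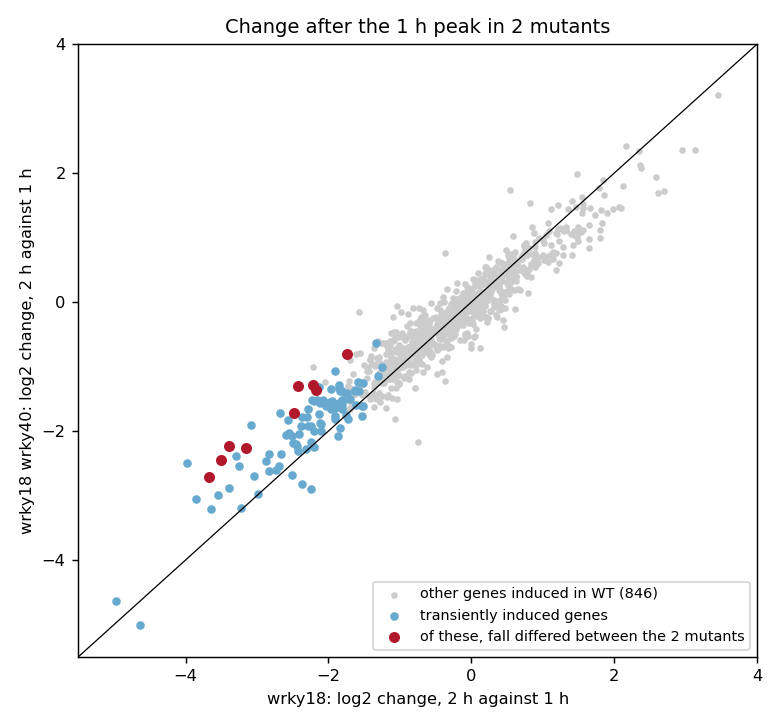
Log2 change at 2 h against 1 h in wrky18 (horizontal) and in the double mutant (vertical) for the 846 other induced genes (grey) and the 100 genes (blue), with the 9 whose fall differed in red and a line of equal change. The point lay above the line, a smaller fall in the double mutant, for 89 of the 100 genes, a direction that the choice of genes for steep falls in WT favours.

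Across the 100 genes the falls followed each other, with Pearson's r of 0.858 between the double mutant and wrky18, 0.883 between the double mutant and wrky40 and 0.831 between wrky40 and wrky18. These are descriptions over genes of the same libraries. The double mutant and wrky40 differ in WRKY18, and fewer genes separated them. At 1 h AT4G04480 alone was called, and at 2 h 9 genes were higher in the double mutant and 2 lower, beside 1.18% and 2.08% of all genes. The largest of the 9 was NAC090, with 3.17, 3.7996 and 2.96 CPM in the double mutant and 1.88, 1.82 and 1.44 CPM in wrky40, a difference of 1.00 ± 0.19 (adjusted p = 0.00272, edgeR). AT5G51190 was lower, with 5.46, 6.15 and 5.96 CPM against 8.23, 13.7 and 13.1 CPM (-0.95 ± 0.27, adjusted p = 0.0493, edgeR), as was DIC2. With the replicate block 19 genes were called at 2 h, and leaving out 1 library gave 17 without wrky40 replicate 1, 7 without double mutant replicate 1, 3 without wrky40 replicate 3 and 5 without wrky40 replicate 2 or double mutant replicate 2 or 3.

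The fall differed between the double mutant and wrky40 for DIC2 alone, which fell further in the double mutant (-0.89 ± 0.18, adjusted p = 0.0484, edgeR), beside 0.0796% of all genes called lower and 0% called higher. That call was lost without any 1 of the 6 double mutant libraries, or without replicate 2 or 3 of wrky40 at either time, and with DESeq2 size factors or the mutant libraries alone. At an unadjusted p below 0.05 there were 17 of the 100 genes. The share of all genes at that limit was not counted, so the 17 have no weight as evidence.

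Between the single mutants, 6 genes were lower in wrky40 than in wrky18 at 1 h and none was higher, beside 0.323% and 1.03% of all genes. Besides AT4G04480 they were AT1G74450 (-0.70 ± 0.14), SVL3 (-0.61 ± 0.13), AT3G02840 (-0.57 ± 0.12), AT1G18740 (-0.54 ± 0.11) and DIC2 (-0.53 ± 0.13, edgeR). At 2 h 6 were higher and 1 lower, beside 0.595% and 0.29% of all genes: NAC036, AT1G78410, AT5G52750 (0.82 ± 0.17), AT4G22030 (0.77 ± 0.18), AT3G12910 and TDR1 (0.69 ± 0.15) were higher, and AT4G15975 was lower. Among the 846 other induced genes, 1.06% were lower and 6.50% higher in wrky40 at 1 h, and 0.236% were lower and 4.85% higher at 2 h. Since wrky18 lay near the WT pattern on which the 100 genes were chosen, that choice favours lower peaks and smaller falls in wrky40. The balance of the counts in this comparison is therefore a description only. With the replicate block the counts over the 100 genes were 11 at 1 h and 11 at 2 h. At 1 h the count was 16 without wrky40 replicate 1, 2 without wrky18 replicate 2 and 1 without wrky40 replicate 2 or 3, and at 2 h it was 3 without wrky40 replicate 2 or wrky18 replicate 3. The fall was smaller in wrky40 for NAC036 (1.28 ± 0.19, adjusted p = 0.00106) and AT1G18740 (0.86 ± 0.16, adjusted p = 0.0206, edgeR) and larger for none, beside 0.0281% and 0.014% of all genes. The block gave 5 such genes, and omission of 1 library gave 7 without wrky40 1 h replicate 1, 4 without wrky40 2 h replicate 1 and 1, NAC036, without wrky18 replicate 1 or 2 at 1 h, wrky18 replicate 2 at 2 h, wrky40 replicate 2 at 1 h or 2 h, or wrky40 replicate 3 at 1 h.

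Before treatment the genes were low in all genotypes, with summed levels of 987 to 1178 CPM in the double mutant, 905 to 1054 CPM in wrky40, 704 to 1014 CPM in wrky18 and 678 to 953 CPM in WT. In the untreated double mutant 6 genes were higher than in wrky18 and none lower, beside 1.01% and 0.454% of all genes. They were PHI-1 (1.27 ± 0.25), AT3G29000 (1.25 ± 0.22, adjusted p = 0.00468), SARD1 (1.24 ± 0.30), AT3G22910 (1.23 ± 0.31), NAC036 and AT2G26190 (0.57 ± 0.15, edgeR). PHI-1 had 50.4, 64.4 and 79.5 CPM in the double mutant against 20.4, 20.6 and 39.9 CPM in wrky18. Touch and handling genes moved with this comparison, at 341 to 373 CPM in the double mutant and 242 to 324 CPM in wrky18, and their part was not tested. The block gave 12 genes, and the count was 18 without wrky18 replicate 3, 14 without double mutant replicate 1, 2 without double mutant replicate 2 and 1 without wrky18 replicate 1 or 2 or double mutant replicate 3. Against wrky40, NAC036 was higher and EXO70H7 lower (-0.47 ± 0.11, adjusted p = 0.0298, edgeR) in the untreated double mutant, beside 0.632% and 0.89% of all genes. The count there was 8 without wrky40 replicate 1, 1 without wrky40 replicate 3 and 0 without wrky40 replicate 2 or double mutant replicate 2. No gene was called between untreated wrky40 and wrky18 by edgeR, beside 0.0609% of all genes, and 1 was called by DESeq2. The count of called genes there was 5 without wrky18 replicate 3 and 1 without wrky40 replicate 1. At an unadjusted p below 0.05 there were 15. The share of all genes at that limit was not counted, so the 15 have no weight as evidence.

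Set against WT, as a description, the median log2 difference over the 100 genes at 1 h was -0.18 in the double mutant, -0.13 in wrky40 and 0.06 in wrky18. At 2 h it was 0.29, 0.21 and 0.11 in the same order, with 68, 73 and 75 of the genes above WT. The median over all genes was within 0.02 of 0 in each. Over the other induced genes it was 0.14, 0.09 and 0.01 at 1 h and 0.20, 0.14 and 0.08 at 2 h. An excess over WT at 2 h was thus not particular to the 100 genes. The fall after 1 h was smaller than in WT for 89 of the 100 genes in the double mutant, 86 in wrky40 and 52 in wrky18. The choice of genes for steep falls in WT favours that direction, so these counts have no weight as evidence.

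Lists of genes from known families, drawn up with earlier results in view, are counted here whole, with those of the 100 genes that belong to them. A list need not hold every gene of its family. Of all 21356 genes tested, 4913 fell between 1 h and 2 h in the double mutant, 5319 in wrky40 and 5518 in wrky18, and 5297, 5795 and 6138 rose. Of 16 calmodulin-like genes, 12 fell between 1 h and 2 h in the double mutant, 12 in wrky40 and 11 in wrky18, and 1, 3 and 2 rose, with 2 of the 16 among the 100. Of 37 WRKY genes, 14, 15 and 11 fell and 11, 11 and 10 rose, and WRKY46 is the 1 member among the 100. Of 23 MYB and NAC stress genes, 3, 2 and 4 fell and 16, 15 and 15 rose. NAC036, the 1 of these among the 100, thus went against most of the list. AT3G12910 and NAC090, NAC genes among the 100 that are not on the list, fell in every mutant too. Of 25 genes of jasmonate synthesis, turnover and repression, 3, 3 and 4 fell and 18, 18 and 14 rose, and LOX4, the 1 among the 100, went against most of the list. Of 27 tested ERF genes of groups VIII to X, 8, 8 and 9 fell and 11, 11 and 12 rose, with 2 among the 100.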

How the data were processed

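RNA of 36 libraries was counted per gene by the authors, who deposited raw counts, whole numbers without normalization, of which every sample column was used. Per the submitters' processing notes, FastQC 0.11.2, TopHat2 2.0.10 and HTSeq were used with the TAIR10 build, and the labels' protocols name a stranded kit. Gene names, structures and promoters come from RefSeq TAIR10.1, matched by locus tag for all 100 genes, and no coordinates were in the table. Levels are CPM from column sums. Changes come from edgeR 4.0.16 (R 4.3.3): filterByExpr (21356 genes), TMM, a mean for each of 12 groups, quasi-likelihood tests with 24 residual degrees of freedom, Benjamini-Hochberg adjustment per comparison over all genes tested, and a call at 0.05. SE was derived as |log2 change| / √F. P-values are two-sided, and the common biological coefficient of variation was 10.7%. The fit was tested on simulated data for the double mutant against wrky18 at 2 h, with 50 genes changed by each factor. Of these, 98% were called at a factor of 2, 90% at 0.5, 72% at 1.5 and 68% at 0.667. Of 176 calls, 12 were false. Changes of about 1.5 times or less can thus be missed. The members, the gene lists, the roles and the comparisons were chosen with earlier results of these data known. Genes named are the steepest falls and highest peaks in WT, those at each limit of the choice, members of the lists, the 5 largest called changes in each direction between mutants and the 5 least falls in each mutant; other called members were added after their values were seen.

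The design text describes each replicate as a set of 12 samples, so the numbers pair the samples. Deviations from group means of same-numbered libraries had a median correlation of 0.251 over 198 pairs, of which 167 were above 0.1, and differently numbered ones -0.134 over 396 pairs. Pairs of libraries of the same group were compared by chi-square per degree of freedom over genes, and pairs across groups were not. None agreed within counting noise. The closest were WT 1 h replicates 1 and 3, at 4.32, and then WT 1 h replicates 2 and 3, at 5.88. Alternatives were DESeq2 size factors in edgeR, no low count filter, the DESeq2 1.42.0 Wald test, the mutant libraries only, the replicate block, each library left out in turn, and other choices of members. One promoter sequence is not reported here.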

Additional observations from a re-analysis of the deposited data

Results flagged for a closer look

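Differences between mutants in the change after the peak, 2 h against 1 h, were called for 12 pairs of gene and comparison by edgeR's quasi-likelihood test with Benjamini-Hochberg adjustment. For the double mutant against wrky18 the log2 differences, positive where the fall was smaller in the double mutant, were 1.16 for NAC036, 1.12 for TDR1, 1.05 for AT4G22030, 0.95 for AT3G12910, 0.94 for AT1G78410, 0.94 for AT1G18740, 0.88 for AT1G74450, 0.82 for AT5G66650 and 0.77 for AT1G05575. For the double mutant against wrky40 the difference was -0.89 for DIC2, a larger fall. For wrky40 against wrky18 the differences were 1.28 for NAC036 and 0.86 for AT1G18740. Since wrky18 lay near the WT pattern on which the genes were chosen, that choice favours smaller falls in the other mutants than in wrky18. The cause of these differences was not tested.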

How the results depend on the processing

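The calls within mutants, 100 of 100 genes lower at 2 h than at 1 h and 100 of 100 higher at 1 h than at 0 h, were the same under every alternative, and no direction was reversed. With 1 library left out, the genes called at 2 h against 0 h ran from 91 to 95 in the double mutant, 92 to 94 in wrky40 and 96 to 97 in wrky18. Every called member was followed under the alternatives, for 2 h against 1 h within mutants and for all comparisons between mutants. Together 4128 alternative values kept the call and 256 lost it. All 256 came from comparisons between mutants, as every call of a fall within a mutant was kept.

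With the replicate number as a block, more genes were called: for the double mutant against wrky18, 12 at 0 h and 14 for the difference in the fall. The block gave 19 for the double mutant against wrky40 at 2 h, and 11 at 1 h, 11 at 2 h and 5 for the fall for wrky40 against wrky18. It changed no other count by over 1.5 times. The DESeq2 Wald test gave 19 at 0 h and 19 for the fall for the double mutant against wrky18, 4 at 0 h and 3 for the fall for the double mutant against wrky40, and 1 at 0 h, 12 at 1 h, 11 at 2 h and 8 for the fall for wrky40 against wrky18. DESeq2 size factors and the mutant libraries alone each gave 0 for the fall between the double mutant and wrky40. For the fall between wrky40 and wrky18, no filter gave 4 and the mutant libraries alone 1. The cause of these changes was not tested.

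With 1 library left out, counts for the double mutant against wrky18 ran from 1 to 18 at 0 h, 8 to 25 at 1 h, 16 to 24 at 2 h and 4 to 11 for the fall. For the double mutant against wrky40 they ran from 0 to 8 at 0 h, 3 to 17 at 2 h and 0 to 1 for the fall. For wrky40 against wrky18 they ran from 0 to 5 at 0 h, 1 to 16 at 1 h, 3 to 7 at 2 h and 1 to 7 for the fall. Under every alternative, 14 of the 25 calls at 2 h, 6 of the 22 at 1 h and 4 of the 9 in the fall remained for the double mutant against wrky18.

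The choice of genes shared 95, 95 and 96 members when WT replicate 1, 2 or 3 was left out, and 96 with TMM scaling. Leaving out WT 1 h replicate 3 alone was added after seeing the data. With the 50 or the 200 lowest genes, the median of log2(CPM + 1), 2 h minus 1 h, was -2.08 or -1.41 in the double mutant, -2.08 or -1.42 in wrky40 and -2.47 or -1.64 in wrky18. With 3 libraries a group, genes near 1 CPM such as ERF13 and DIP2 at 2 h rest on few counts.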
